A study of Danio rerio with 18 samples.

Results

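The genes described here are 10 members of the circadian clock, measured in sorted retinal cells of adult zebrafish after transection of the optic nerve. They were the clock activators clocka, clockb, arntl1a, arntl1b and arntl2 (the arntl genes are now also named bmal1a, bmal1b and bmal2), the nuclear receptor genes nr1d1 and nr1d2a, and the PAR bZIP factors tefa, tefb and hlfa. The members were chosen by name, and 10 of 10 were found among the 25281 genes of the deposited tables. All 10 passed the filter on low counts, with 6 to 10507 counts per library.

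In each of 3 times the libraries came from injured eyes, whose optic nerve had been cut, and from control eyes, the uninjured eyes on the other side. All fish carried the isl2b:GFP reporter, were 3 to 5 months old and lived in a cycle of 14 h of light and 10 h of darkness. Each library was made from 1000 GFP-positive cells, with a SMART-Seq cDNA kit for low input. There were 3 libraries in each of 6 groups, injured and control at each of 6, 12 and 24 h after the injury (hpi). The labels state 5 replicates per time point, a number that differs from the 3 libraries per group without explanation. Total counts ranged from 15490375 to 28329194. The control eyes are contralateral, so they belong to fish that had also been operated on, and the labels do not say how many fish went into a library or whether the libraries are separate fish. The p-values therefore measure the spread between these libraries. The hour of the day at surgery or at collection is not given in the sources used here, so hours since injury and hour of the day cannot be told apart.

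The vertebrate clock is a feedback loop. CLOCK and ARNTL (BMAL) proteins pair and activate genes with E-box elements, among them the per, cry and nr1d genes and the PAR bZIP genes. The Nr1d (REV-ERB) receptors repress arntl genes, and the PAR bZIP proteins activate genes with D-box elements. In zebrafish many tissues hold clocks that light can set directly, and D-boxes take part in the light response of genes such as per2.

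The label of the sorted cells was checked against fixed markers. The ganglion cell gene isl2b, which drives the reporter, had 12.2 to 298 CPM (counts scaled to a common library size with TMM factors). The marker rbpms2b had 53.3 to 445 CPM, and pou4f1 was low, with 1.49 to 24.7 CPM. Rod and cone genes (34 of 34 found, 0 of them at 0 in all libraries) took 14.2% to 27.5% of all counts, and ganglion cell markers (19 of 19 found, 1 of them at 0 in all libraries) 0.0712% to 0.345%. The rod opsin gene rho alone had at least 72540 CPM in every library. The markers of the labelled cell type were thus present, beside far more abundant photoreceptor transcripts. In such bulk samples, fewer cells of a type and less RNA per cell cannot be told apart.

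The 10 genes were first ranked by level per length, in the authors' RPKM values (reads scaled by exon length and by library size). The nuclear receptor gene nr1d2a had a median of 54.4 RPKM over 18 libraries (25.3 to 78.1), and tefa had 52.8 RPKM (34.2 to 71.4). The pair did not separate, with nr1d2a above tefa in 11 of 18 libraries. Next came nr1d1 with 33.8 RPKM, below tefa in 17 of 18 libraries and above hlfa, at 11.8 RPKM, in 18 of 18. Below them hlfa exceeded arntl1b (9.43 RPKM) in 15 of 18 libraries, and arntl1b and tefb (8.51 RPKM) did not separate (11 of 18). The activators arntl1a and clockb followed with 4.77 and 3.78 RPKM, the first of them higher in 13 of 18 libraries. The lowest were arntl2 with 0.556 RPKM (0.241 to 1.04) and clocka with 0.532 RPKM (0.0449 to 1.18), in an order that split the libraries 9 to 9. So of the activator paralogs clockb stood above clocka and arntl1b above arntl1a, and the repressor and PAR bZIP genes nr1d2a, tefa and nr1d1 were the most abundant.

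**Figure D1:**
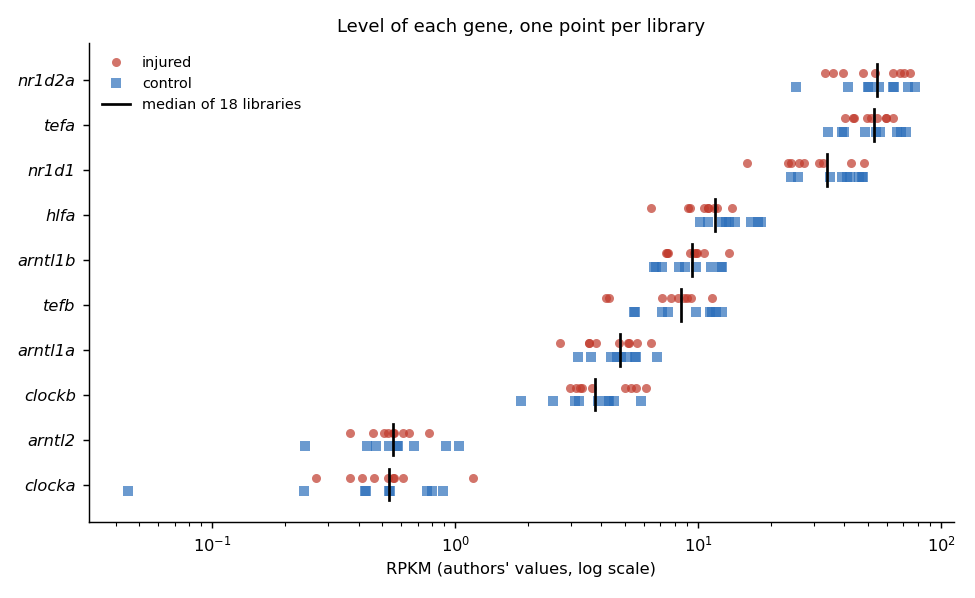
RPKM of the 10 genes on a log scale, one point per library (injured above control in each row), with the median of 18 libraries as a black bar. The genes nr1d2a, tefa and nr1d1 lie at medians of 54.4, 52.8 and 33.8 RPKM, and arntl2 and clocka near 0.5 RPKM.

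The gene tefa, a PAR bZIP activator of D-box genes, rose over time in both arms. It lies on chromosome 12 (19144833 to 19153177, minus strand, GRCz11). It had 174, 146 and 159 CPM in injured and 135, 132 and 128 CPM in control libraries at 6 hpi. At 12 hpi it had 193, 195 and 171 CPM in injured and 166, 205 and 197.5 CPM in control libraries. At 24 hpi it had 257, 243 and 238 CPM in injured and 256, 277 and 262 CPM in control libraries. In both arms every library of 24 hpi lay above every library of 6 and 12 hpi. The share of all genes whose libraries separate between times is not given here, for this gene or those below. The log2 change from 6 to 24 hpi was 0.625 in injured libraries (standard error 0.11, 1.54-fold) and 1.01 in controls (standard error 0.11, 2.01-fold).

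Differences over the 3 times were tested in each arm for all 17527 genes by edgeR's quasi-likelihood test, with Benjamini-Hochberg adjustment and a threshold of 0.05. The test called tefa in injured libraries (adjusted p = 0.0148) and in controls (adjusted p = 0.000292), and none of the other 9 members in either arm. By edgeR 1 of 10 members was thus called in each arm, where 1.53% of all genes were called in injured libraries and 1.54% in controls. At an unadjusted p under 0.05 there were 4 of 10 members in injured libraries, against 12.6% of all genes, and 4 of 10 in controls, against 12.0%. In this joint test DESeq2 called no further member in a single arm. For the change from 6 to 24 hpi alone DESeq2 called 3 of 10 members in injured libraries and 1 of 10 in controls. The share of all genes in those DESeq2 tests is not given here. In the injured arm the call of tefa was lost without injured replicate 3 of 6 hpi (edgeR adjusted p = 0.05065), or injured replicates 1 or 2 of 24 hpi (0.0788 and 0.0683). It was also lost when 4 libraries were left out that were inferred from their sample-sheet numbers to form a set of their own (edgeR adjusted p = 0.1345 in injured libraries and 0.0644 in controls), and when the injured libraries were fitted alone (0.112). Without those 4 libraries the log2 change was 0.65 in injured libraries and 1.00 in controls. With all 18 libraries, pairs of times were also tested for tefa by edgeR. From 6 to 24 hpi tefa passed in injured libraries (adjusted p = 0.00571) and in controls (0.000114). From 12 to 24 hpi it passed in controls (0.0371) and not in injured libraries (0.0957), and from 6 to 12 hpi in neither arm.

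**Figure D2:**
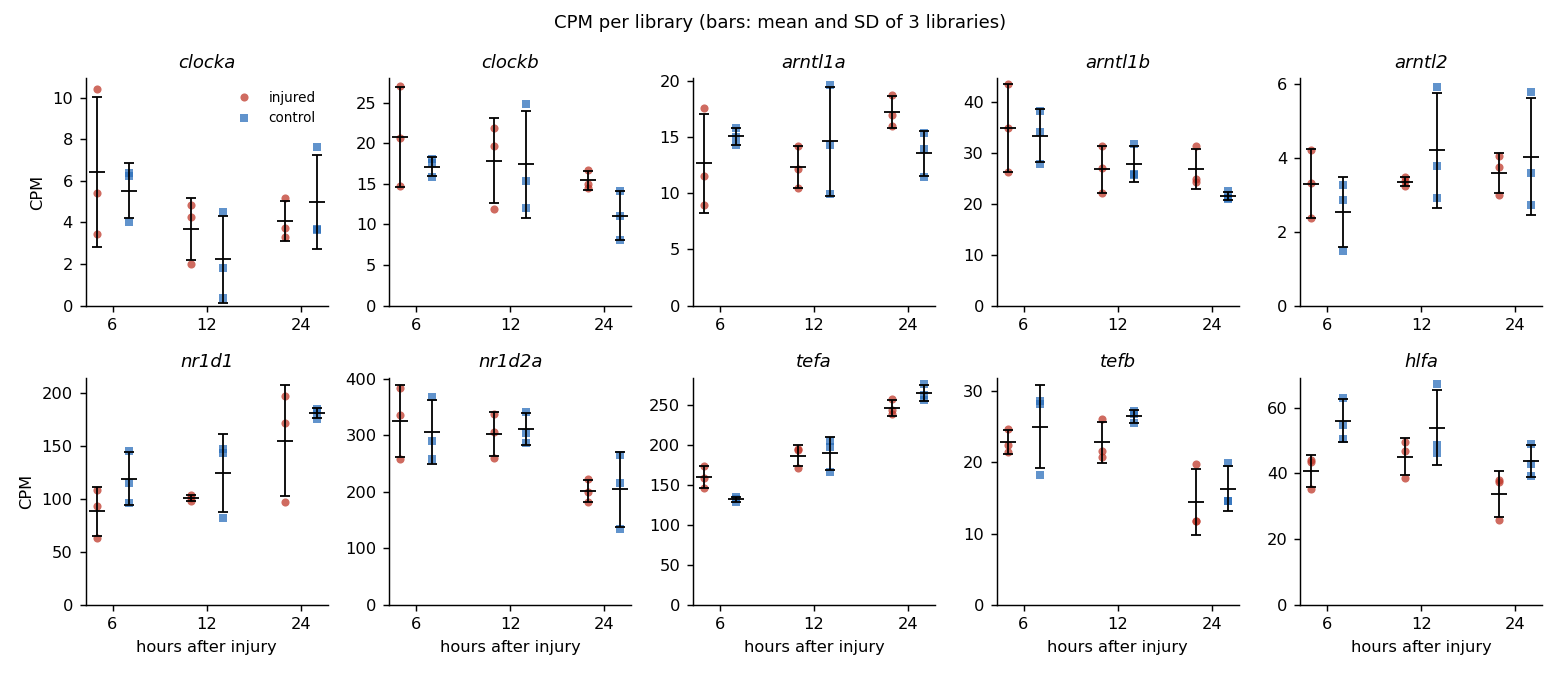
CPM of each gene against hours after injury, one point per library, with the mean and SD of 3 libraries per group (injured left of control). The 24 hpi libraries of tefa lie between 238 and 277 CPM and those of 6 hpi between 128 and 174 CPM.

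Both arms were then combined, as the mean of the injured and the control change, a comparison chosen after the single arms had been seen. Injured and control libraries of a time may come from the same fish, and the labels do not pair them, so these p-values treat as separate what may share an animal. With edgeR 4 of 10 members were called over time, tefa, nr1d1, nr1d2a and tefb, where 5.73% of all genes were called. Of these tefa and nr1d1 rose from 6 to 24 hpi, and nr1d2a and tefb fell. The log2 change of tefa was 0.82 (standard error 0.078, edgeR adjusted p = 1.76e-05), called in 25 of 25 alternatives. The median absolute log2 change from 6 to 24 hpi was 0.52 over the 10 members and 0.31 over all genes.

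The receptor gene nr1d1, a repressor of arntl genes, lies on chromosome 3 (23488652 to 23496223, plus strand). It had 93.9, 108.5 and 62.8 CPM in injured and 146, 115.5 and 96.0 CPM in control libraries at 6 hpi. At 12 hpi it had 101, 97.75 and 104 CPM in injured and 82.3, 148 and 143.5 CPM in control libraries. At 24 hpi it had 172, 197 and 96.9 CPM in injured and 185, 183 and 176 CPM in control libraries. The controls of 24 hpi lay above those of 6 hpi without overlap, while injured replicate 3 of 24 hpi stayed in the range of the 6 hpi libraries. Over both arms the log2 change from 6 to 24 hpi was 0.71 (standard error 0.18, edgeR adjusted p = 0.0262 for this change alone). The joint test over the 3 times called nr1d1 with an edgeR adjusted p of 0.0433. Single libraries decided this call: the adjusted p-value ranged from 0.00972 to 0.148 when 1 of the 18 libraries was left out, and the call held in 6 of these 18 fits. Those 6 left out injured replicate 2 or control replicate 1 of 6 hpi, any control of 12 hpi, or injured replicate 3 of 24 hpi. Leaving out any of the other 12 libraries, or the 4 libraries of the inferred set (edgeR adjusted p = 0.0826), ended the call.

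Its paralog nr1d2a, a receptor of the same family, lies on chromosome 16 (50089417 to 50111057, plus strand). It had 383, 336 and 258 CPM in injured and 368, 290 and 258 CPM in control libraries at 6 hpi. The 12 hpi libraries had 338, 260.5 and 306 CPM in the injured and 341, 286.5 and 304 CPM in the control arm. At 24 hpi it had 199, 222 and 182.5 CPM in injured and 265, 134 and 216 CPM in control libraries. The injured arm did not overlap between 6 and 24 hpi, whereas control replicate 1 of 24 hpi lay within the range of the 6 hpi controls. Over both arms the log2 change from 6 to 24 hpi was -0.64 (standard error 0.15, edgeR adjusted p = 0.0148 for this change alone). The joint test over the 3 times called nr1d2a with an edgeR adjusted p of 0.0242. The call held in 14 of 18 fits without 1 library, and was lost without injured replicate 1 or 3 or control replicate 2 or 3 of 24 hpi (edgeR adjusted p of up to 0.0767).

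The second tef gene, tefb, changed in the other direction from tefa. It lies on chromosome 3 (5052822 to 5067585, minus strand). It had 24.7, 21.4 and 22.4 CPM in injured and 28.1, 28.6 and 18.3 CPM in control libraries at 6 hpi. At 12 hpi it had 20.7, 21.6 and 26.1 CPM in injured and 26.8, 25.4 and 27.1 CPM in control libraries. At 24 hpi it had 19.8, 11.8 and 11.8 CPM in injured and 19.9, 14.5 and 14.5 CPM in control libraries. The injured libraries of 24 hpi lay below those of 6 hpi, and among controls 1 library of 6 hpi overlapped the 24 hpi range. Over both arms tefb had a log2 change from 6 to 24 hpi of -0.64 (standard error 0.16, edgeR adjusted p = 0.0228 for this change alone). The joint test over the 3 times called tefb with an edgeR adjusted p of 0.0247. That call held in 14 of 18 fits without 1 library. It was lost without injured replicate 2 or 3 or control replicate 2 or 3 of 24 hpi (edgeR adjusted p of up to 0.0874), and without the 4 libraries of the inferred set (0.0565).

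**Figure D3:**
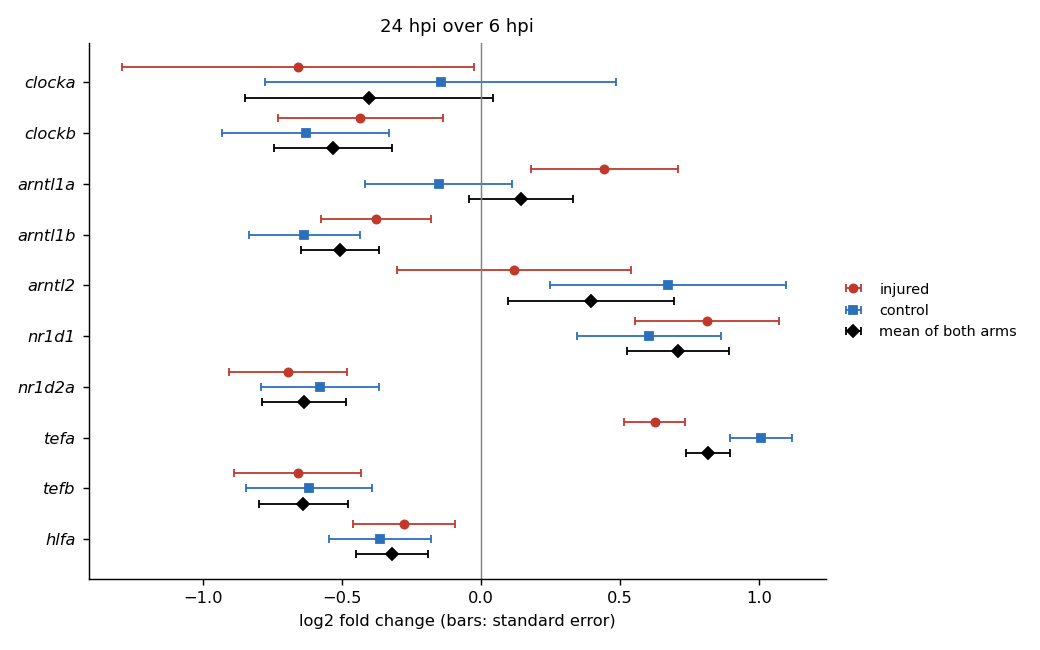
Log2 change from 6 to 24 hpi in injured libraries, in controls and as the mean of both arms, with standard errors. In both arms tefa, nr1d1 and arntl2 lie right of 0 and nr1d2a, tefb, arntl1b, clockb, hlfa and clocka left of it. The gene arntl1a lies right of 0 in injured libraries and left of it in controls. Over both arms the joint edgeR test over all times called tefa, nr1d1, nr1d2a and tefb. Tested alone over both arms, the plotted change from 6 to 24 hpi passed the threshold for these genes and for arntl1b (edgeR adjusted p = 0.03805 for arntl1b).

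The other 6 members were not called over both arms in the joint test over the 3 times. Among the activators, arntl1b had a log2 change from 6 to 24 hpi of -0.38 in injured libraries and -0.63 in controls. Over both arms the change was -0.51 (standard error 0.14), and tested alone it passed the threshold (edgeR adjusted p = 0.03805). In the joint test arntl1b had an edgeR adjusted p of 0.0875. It averaged 34.75 ± 8.655 CPM in injured and 33.3 ± 5.199 CPM in control libraries at 6 hpi, and 26.7 ± 3.92 CPM in injured and 21.5 ± 0.838 CPM in control libraries at 24 hpi (SD, n = 3 each). In controls the 24 hpi libraries of arntl1b lay below those of 6 hpi, and in injured libraries they overlapped. In the joint test DESeq2 called arntl1b (adjusted p = 0.0376), as did edgeR without injured replicate 2 of 6 hpi (adjusted p = 0.0349). For clockb the log2 change was -0.43 in injured libraries and -0.63 in controls, and for hlfa -0.28 and -0.36. Their edgeR adjusted p-values in the joint test over both arms were 0.286 and 0.195. Like arntl1b, clockb and hlfa lay lower at 24 than at 6 hpi without overlap in controls, and overlapped in injured libraries. The paralog arntl1a had 0.44 in injured libraries and -0.15 in controls. The lowly counted clocka and arntl2 had standard errors of at least 0.42 in each arm, and their changes did not pass the test.

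Within-family ratios do not depend on how libraries are scaled, since both values come from the same library. The RPKM ratio of tefa over tefb averaged 4.80 ± 0.106 in injured and 3.76 ± 0.914 in control libraries at 6 hpi (SD, n = 3 each). It averaged 5.71 ± 1.05 in injured and 4.93 ± 0.635 in control libraries at 12 hpi, and 12.3 ± 2.97 in injured and 11.45 ± 2.29 in control libraries at 24 hpi. In both arms all libraries of 24 hpi (8.91 to 14.2 in injured, 8.84 to 13.1 in control) lay above all libraries of the earlier times (at most 6.40 in injured and 5.53 in control). The ratio of nr1d1 over nr1d2a was 0.333 to 0.441 in injured and 0.508 to 0.544 in control libraries at 6 hpi. At 24 hpi it was 0.725 to 1.21 in injured and 0.954 to 1.87 in control libraries, above all earlier libraries in both arms. The ratio of arntl1a over arntl1b overlapped between 6 and 24 hpi in both arms. These ratios were formed after the values of the single genes had been seen and were not tested.

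**Figure D4:**
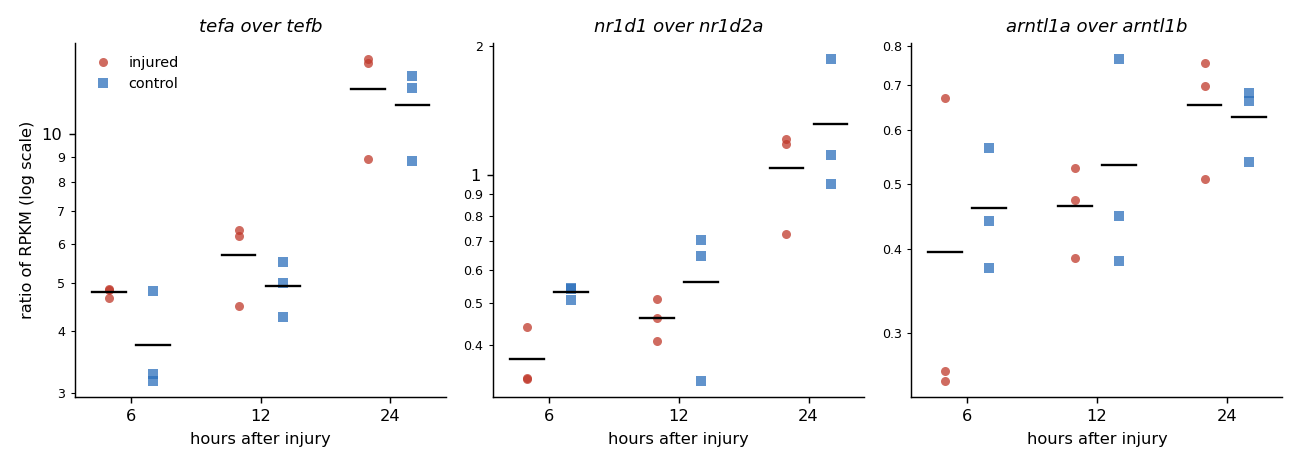
Ratio of RPKM within 3 paralog pairs against hours after injury (log scale), one point per library, with the group mean as a bar. The ratios of tefa over tefb and of nr1d1 over nr1d2a at 24 hpi lie above all libraries of 6 and 12 hpi of the same arm, and those of arntl1a over arntl1b overlap.

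Rod and cone transcripts also differed between times. Their share of counts was 17.5% to 25.95% in injured and 14.2% to 22.8% in control libraries at 6 hpi, and 26.2% to 27.5% in injured and 23.8% to 23.9% in control libraries at 24 hpi. Their part in the changes of the clock genes was not tested. Within the injured libraries of 6 hpi the shares were 25.95%, 17.5% and 25.4%, beside 174, 146 and 159 CPM of tefa. Within the controls of 6 hpi the shares were 16.4%, 14.2% and 22.8%, beside 135, 132 and 128 CPM of tefa. Injured libraries of 12 hpi had shares of 26.4%, 21.8% and 17.9%, beside 193, 195 and 171 CPM of tefa. Controls of 12 hpi had 18.5%, 21.2% and 21.9%, beside 166, 205 and 197.5 CPM. Injured libraries of 24 hpi had 27.05%, 27.5% and 26.2%, beside 257, 243 and 238 CPM. The controls of 24 hpi had shares of 23.8% to 23.9% and 256 to 277 CPM of tefa. Ganglion cell markers took 0.0712% to 0.250% in injured and 0.209% to 0.345% in control libraries at 6 hpi, and 0.1025% to 0.186% in injured and 0.212% to 0.270% in control libraries at 24 hpi. The library names in the labels end in S and a number, read here as a sample-sheet number. Of these numbers 4 occur in 2 libraries each, 8 libraries in all. From the order of the names, 4 of the 8 were inferred to be a separate set, and the labels do not say what the numbers stand for. The set holds 2 controls of 6 hpi and 1 control and 1 injured library of 24 hpi. Within that set the log2 ratio of 24 over 6 hpi in controls was 0.98 for tefa, 0.81 for nr1d1, -0.049 for nr1d2a and -0.23 for tefb. Among the controls of the other set it was 1.00 for tefa, 0.30 for nr1d1, -1.08 for nr1d2a and -0.96 for tefb; with 1 or 2 libraries a group these were not tested.

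Other clock genes were read in the same way, from a list of 51 names of which 42 were in the tables and 41 were tested. In injured libraries 5 of 41 changed upward and 0 downward over time, and in controls 5 upward and 1 downward (edgeR adjusted p under 0.05). Of all genes 1.53% were called in injured libraries and 1.54% in controls. The largest change in the list was that of per2, a period gene induced by light in zebrafish. It averaged 7.86 ± 1.42 CPM in injured and 10.9 ± 3.16 CPM in control libraries at 6 hpi, and 196.5 ± 37.0 CPM in injured and 192.5 ± 6.73 CPM in control libraries at 24 hpi (SD, n = 3 each). The cryptochrome-related genes cry-dash, cry1a and cry2 rose too, with log2 changes from 6 to 24 hpi of 1.465, 0.98 and 0.86 in injured and 1.95, 0.97 and 1.17 in control libraries (edgeR adjusted p up to 0.0267 and 0.00218). The gene called lower in controls was fbxl3a, which encodes an F-box protein that targets cryptochromes (log2 change -0.66, edgeR adjusted p = 0.0104). Its log2 change in injured libraries was -0.34 (edgeR adjusted p = 0.372).

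A second list held genes known to be induced by light in zebrafish, with D-box elements. Like the list of other clock genes, it was chosen with earlier results of these data known. Of its 9 measured genes, 7 rose over time in injured libraries and 7 in controls, namely per2, cry1a, cry5, cry-dash, ddb2, lonrf1 and lonrf1l. Among all genes 1.53% in injured libraries and 1.54% in controls were called, in either direction. The list shares per2, cry1a, cry5 and cry-dash with the other clock genes. Its median log2 change from 6 to 24 hpi was 1.465 in injured libraries and 1.80 in controls, against -0.017 and -0.015 over all genes. The repair gene ddb2 averaged 5.84 ± 1.29 CPM in injured and 8.20 ± 2.15 CPM in control libraries at 6 hpi, and 25.0 ± 9.87 CPM in injured and 28.6 ± 5.65 CPM in control libraries at 24 hpi (SD, n = 3 each). The gene lonrf1l averaged 25.1 ± 6.88 CPM in injured and 20.8 ± 2.30 CPM in control libraries at 6 hpi, and 126 ± 17.4 CPM in injured and 144 ± 17.2 CPM in control libraries at 24 hpi (SD, n = 3 each). The remaining genes of the list, xpc and neil1, were not called.

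The profile of tefa over the 18 libraries was compared with that of 9024 other genes with an average log2 CPM of at least 3. The gene most like it was guca1a, which encodes a guanylate cyclase activator of photoreceptors, with a Pearson correlation of log2 CPM of 0.954. The second was the cryptochrome gene cry2, with 0.947. These values describe the 18 libraries, which differ in time, arm and depth. Genes that change alike between the times correlate over them. The mean of guca1a was 196 CPM in injured and 153 CPM in control libraries at 6 hpi, and 569.5 CPM in injured and 489.7 CPM in control libraries at 24 hpi.

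Cutting the optic nerve was not followed by a called change in any of the 10 genes. Of the 10 members 0 passed the edgeR test at 6, 12 or 24 hpi, or for the injury effect averaged over the 3 times, where 0.0% of all genes passed. At an unadjusted p under 0.05 there were 2 members at 6 hpi (tefa and hlfa), 0 at 12 hpi, 0 at 24 hpi and 2 for the average (hlfa and nr1d1). The same threshold was met by 9.28%, 3.64% and 8.48% of all genes at 6, 12 and 24 hpi and by 12.6% for the average. DESeq2, which called 68, 7, 189 and 226 genes in these comparisons, called 0 of the 10 members in each. The difference of the injury effect between times was called for 0 members and 0.0% of genes, with 0 members at an unadjusted p under 0.05. The authors' deposited table lists adjusted p-values of at least 0.535 for all 10 genes at all 3 times.

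The PAR bZIP gene hlfa had the smallest p-value for injury. It lies on chromosome 3 (11585298 to 11624694, minus strand). It had 44.0, 35.2 and 43.4 CPM in injured and 63.1, 54.8 and 50.4 CPM in control libraries at 6 hpi. At 12 hpi it had 46.8, 49.55 and 38.7 CPM in injured and 48.6, 67.1 and 46.2 CPM in control libraries. At 24 hpi it had 37.9, 37.5 and 25.8 CPM in injured and 48.9, 42.8 and 39.35 CPM in control libraries. Injured libraries lay below the controls without overlap at 6 and 24 hpi, and the arms overlapped at 12 hpi. Averaged over the times the log2 fold change of injured over control was -0.36 with a standard error of 0.11. Its unadjusted p was 0.00318 and its edgeR adjusted p 0.217, above the threshold. The averaged value lay between -0.41 and -0.30 under the 25 alternatives tried. Leaving out 1 library gave it edgeR adjusted p-values of 0.166 to 0.387, and DESeq2 gave 0.0606, all above the threshold. The single times varied more, between -0.63 and -0.36 at 6 hpi and between -0.46 and -0.12 at 24 hpi under 26 alternatives each.

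**Figure D5:**
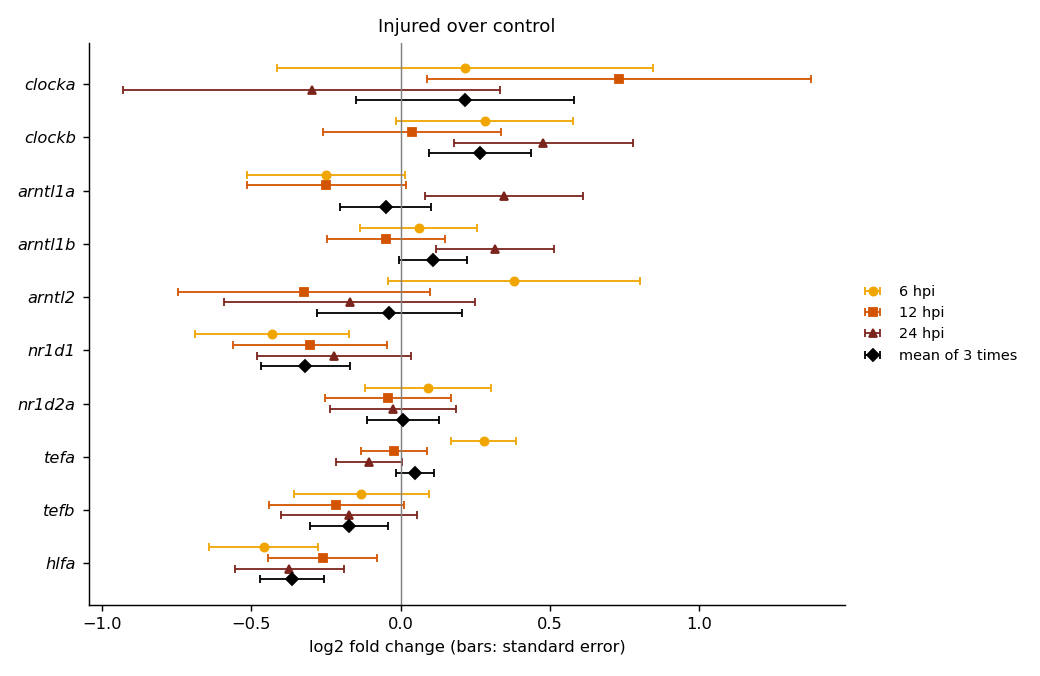
Log2 fold change of injured over control for each gene at 6, 12 and 24 hpi and as the mean of the 3 times, with standard errors. The 4 values of hlfa lie between -0.46 and -0.26, those of nr1d1 between -0.43 and -0.22, and 0 values of any gene passed the edgeR test.

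For nr1d1 the averaged injury effect was -0.32 on the log2 scale, with a standard error of 0.15 and an edgeR adjusted p of 0.391, and the mean of the injured libraries lay below that of the controls at each time. Its 2 arms overlapped at each time. At 6 hpi tefa was at 0.28 on the log2 scale, with a standard error of 0.11 and an edgeR adjusted p of 0.502, and the 3 injured libraries lay above the 3 controls. Its log2 fold change was -0.024 at 12 hpi and -0.11 at 24 hpi, where the arms overlapped. The difference between times of the injury effect on tefa had an unadjusted p of 0.0590 and an edgeR adjusted p of 0.9996.

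At 24 hpi the activators clockb, arntl1a and arntl1b were higher in 3 of 3 injured libraries than in the controls, none of them called. The averages were 15.4 ± 1.20 CPM in injured and 11.1 ± 3.03 CPM in control libraries for clockb, and 17.25 ± 1.425 CPM in injured and 13.6 ± 1.995 CPM in control libraries for arntl1a (SD, n = 3 each). Their log2 fold changes were 0.48 and 0.35, and that of arntl1b was 0.32, with edgeR adjusted p-values of 0.7105 to 0.795. The activators clocka and arntl2 went the other way at 24 hpi, with log2 fold changes of -0.30 and -0.17, also not called. The arms were separate, with no overlap, for 2 of 10 members at 6 hpi, 0 at 12 hpi and 4 at 24 hpi, and for 13.3%, 8.4% and 16.2% of all genes. Rod and cone genes took 26.2% to 27.5% of counts in injured and 23.8% to 23.9% in control libraries at 24 hpi. Ganglion cell markers took 0.1025% to 0.186% in injured and 0.212% to 0.270% in control libraries at this time, also without overlap. The part of either marker list in these differences was not tested. The remaining members clocka, arntl2, nr1d2a and tefb had averaged log2 fold changes from -0.17 to 0.22 and overlapped between the arms at each time.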

How the data were processed

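RNA was sequenced from sorted isl2b:GFP cells in 18 libraries, 3 in each of 6 groups. The authors deposited total counts and RPKM per gene, named in the file headers as paired reads, with the genome build GRCz11 per the submitters' processing notes; 1 library, injured replicate 1 of 6 hpi, is marked as trimmed per the file headers. The authors' deposited log2 fold changes and adjusted p-values come from a model not given in the sources used here. Aligner and counting settings are also not given, nor is strand.

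Genes with enough counts (edgeR's filterByExpr, minimum count 10) numbered 17527 of 25281. Counts were fitted with edgeR 4.0.16 in R 4.3.3 (quasi-likelihood, TMM factors, 1 mean per group, all 18 libraries) and adjusted by Benjamini-Hochberg over all genes tested, with a threshold of 0.05. Standard errors are the log2 change over the square root of F. CPM values use TMM-scaled library sizes. Tests over time are joint over 6, 12 and 24 hpi. An adjusted p beside a log2 change over time is from this joint test, unless stated otherwise. The code was tested on simulated data with 200 changed genes.

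The members and lists were chosen with earlier results of these data known. Every member is named, with up to 4 other clock genes of smallest adjusted p in controls and the genes most correlated with a called member; cry5, fbxl3a, ddb2 and lonrf1l were named after their values were seen. Alternatives were RLE and upper-quartile factors, no filter, a replicate block, sheet set as a term, only the libraries compared, DESeq2 1.42.0 and leaving out each library. The fit over both arms and the fit without 4 libraries were added after the data were seen. That set was inferred from the S numbers in the library names, read as sample-sheet numbers.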

Additional observations from a re-analysis of the deposited data

How the results depend on the processing

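The replicate numbers showed no clear pairing of the samples. Same-numbered injured and control libraries of a time correlated between -0.068 and 0.13 in their deviations, with 2 of 9 pairs over 0.1. Those with different numbers correlated between -0.17 and 0.156, with 1 of 18 pairs over 0.1. With 3 libraries a group this check cannot exclude that libraries share fish. With a replicate block edgeR called 0, 1, 0 and 0 genes for injury at 6, 12 and 24 hpi and on average, 1 for its difference between times, 221 over time in controls, 219 in injured libraries and 909 over both arms. Fitting only the libraries compared gave 6 genes for injury at 6 hpi, 50 at 24 hpi and 107 over time in injured libraries. Without a filter there were 2 at 24 hpi and 2 on average. DESeq2 called 68, 7, 189, 226 and 13 genes for injury at 6, 12 and 24 hpi, on average and between times, 728 over time in controls, 763 in injured libraries and 1771 over both arms. Without the 4 libraries of the inferred sheet set there were 96, 104 and 470 over time in controls, injured libraries and both arms. Leaving out 1 library gave 0 to 1, 0 to 0, 0 to 7, 0 to 14 and 0 to 0 genes for the injury tests, 128 to 327 in controls, 127 to 338 in injured libraries and 687 to 1056 over both arms.

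Small effects changed sign. Leaving out 1 library moved the averaged injury effect between -0.15 and 0.043 for arntl1a, -0.13 and 0.080 for arntl2 (0.014 with the replicate block) and -0.068 and 0.085 for nr1d2a. It moved that of tefa at 12 hpi between -0.11 and 0.037, and that of nr1d1 at 24 hpi between -0.43 and 0.028 (0.043 without the 4 libraries). The change over time moved between -0.59 and 0.038 for clocka in controls, and between -0.069 and 0.34 for arntl2 in injured libraries. The cause was not tested.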

Other observations

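Over both arms 8 of the 41 other clock genes tested had a higher and 4 a lower level at 24 than at 6 hpi, among those edgeR called over time. Of all genes 5.73% were called in this test. Named after their values were seen, nfil3, which encodes a bZIP repressor that binds D-boxes in mammals, had a log2 change of 1.26 (edgeR adjusted p = 0.00467). The PAR bZIP gene dbpb had -0.41 (edgeR adjusted p = 0.00996), in the direction of tefb and not of tefa. The melatonin synthesis gene aanat1 had -0.86 (edgeR adjusted p = 0.0495).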
